A study of Homo sapiens with 6 samples.

Results

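Chemokines are small secreted proteins that attract leukocytes along a gradient. CXCL1, CXCL2, CXCL3, CXCL5, CXCL6 and CXCL8 carry a glutamate-leucine-arginine motif before their first cysteines and recruit neutrophils through the receptors CXCR1 and CXCR2. CCL2 attracts monocytes through CCR2, CCL20 attracts CCR6-bearing lymphocytes and dendritic cells, CXCL10 is an interferon-induced ligand of CXCR3, and CXCL14 is a homeostatic chemokine of epithelia. Epithelial cells release many of them after interleukin-1, TNF or bacterial signals, which act on their genes largely through NF-kB and AP-1.

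The transcripts of these 10 genes were followed in MCF-10A cells, a non-transformed human mammary epithelial line grown with EGF, after ectopic expression of the polarity protein CRB3. Every probe set of the array whose platform symbol is one of these genes was taken, which gave 17 of the 54613 probe sets tested and 10 of the 19775 named genes. The CRB3-expressing cells carried a retrovirus for human CRB3 (amino-terminal myc tag per the study's methods). The vector control cells carried the empty pNG retrovirus. Both were selected, and were harvested as proliferating monolayers at 70% confluence. The study's methods describe tagged CRB3 constructs obtained in pNG, and their subcloning into another retroviral vector, pLNCX2. The sample titles name pNG for the vector control alone. Which of these vectors carried CRB3 here is not clear from the titles and methods. The methods name puromycin for cells given hairpin vectors, and puromycin with G418 for CRB3-expressing cells given those vectors. Which drug selected the cells used here is not clear from them. RNA of 3 samples of each kind was hybridized to 1 Affymetrix U133 Plus 2.0 array per sample. The methods call the samples triplicates without saying whether each was infected separately. The p-values therefore cover the spread among these 6 samples alone, which may be technical. The promoter that drives CRB3 is not given in the sources used here, and all values come from cells that kept their EGF.

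The deposited values are log2 intensities from the Robust Multichip Average method, without detection calls, and array medians lay between 5.84 and 5.88. As a check of the labels, CRB3 stood at 12.16, 11.996 and 12.19 on the CRB3-expressing arrays, against 7.90, 7.59 and 7.85 on the vector control arrays. Throughout, a gene was called higher or lower at an adjusted p under 0.05 from limma, fitted over all probe sets, together with a fold change above 1.5. Of the 8 measured mammary epithelial markers, none had group means under 6. Called higher were 3 (KRT14, CDH1 and KRT8), against 1.43% of all genes, and none was called lower, against 0.465%. At an adjusted p under 0.05 alone, 5 were higher and 1, ITGA6, lower (log2 fold change -0.36, limma adjusted p = 0.0388). KRT5 had a log2 fold change of -0.040. The epithelial list as a whole averaged 12.43 to 12.51 on the CRB3-expressing arrays and 11.87 to 11.89 on the vector control arrays. The part of this shift in the chemokine results was not tested. To place dim signals, 11 genes of unrelated tissues, such as ALB and GCG, were read the same way, and their means over the 6 arrays ran up to 6.52. A chemokine below that level is not shown to be above background, and its change may be understated.

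Most promoters of these chemokines share a short stretch of sequence. The shared stretch is shown because CXCL8, which holds it, was called higher, while CXCL1 and CXCL2, which also hold it, were not. CXCL3, CXCL5, CXCL6 and CXCL10 hold it too, but were no brighter than the unrelated-tissue genes. Whether they moved differently from CXCL8 cannot be read, because a dim signal does not bound the change of the transcript. RefSeq promoter windows (GRCh38.p14, 250 bases before the start site to 50 after it) were found for 9 of the 10 genes, all except CCL2. The letters GGAATTTCC, the core of a common NF-kB motif, were found on either strand in 7 of those 9, against 0.461% of all 35116 promoter windows of the same length. Each line gives 30 bases, 5′ to 3′ on the gene's own strand, with the match in capitals.
CXCL8: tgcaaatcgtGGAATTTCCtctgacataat
CXCL1: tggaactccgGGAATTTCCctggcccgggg
CXCL2: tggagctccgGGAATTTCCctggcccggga
CXCL3: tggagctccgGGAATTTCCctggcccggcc
CXCL5: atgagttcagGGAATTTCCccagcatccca
CXCL6: ctgagttcagGGAATTTCCccagcatccca
CXCL10: aggagcagagGGAAATTCCgtaacttggag
In this order the windows lie at chr4:73740468-73740497 (plus strand), chr4:73869305-73869334 (plus), chr4:74099253-74099282 (minus), chr4:74038748-74038777 (minus), chr4:73998748-73998777 (minus), chr4:73836579-73836608 (plus) and chr4:76023654-76023683 (minus). The match began 91 bases before the start site in CXCL8, 77 or 78 in CXCL1, CXCL2 and CXCL3, 89 or 90 in CXCL5 and CXCL6, and 176 in CXCL10, where it lies on the opposite strand. The letters were chosen by hand, and some of the 7 promoters closely resemble each other, so the share is a description and not a test. These matches are descriptions of letters, and no binding was measured.

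Over the whole window, the shared letters included, the promoter of CXCL8 had less in common with its neutrophil-attracting relatives than they had with each other. In a global alignment of the windows, CXCL1 and CXCL3 were 82.5% identical, CXCL5 and CXCL6 83.1%, and CXCL2 was 72.1% identical to CXCL1 and 73.8% to CXCL3. CXCL8 was between 42.6% (CXCL1) and 44.9% (CXCL3) identical to these 5 genes, within the range of 41.9% to 47% between each of them and CXCL10, CXCL14 or CCL20. The 150 bases before each start site are printed for CXCL8, the member that rose, for CXCL2, the bright paralog with a lower value, and for CCL20, the brightest member.
CXCL8: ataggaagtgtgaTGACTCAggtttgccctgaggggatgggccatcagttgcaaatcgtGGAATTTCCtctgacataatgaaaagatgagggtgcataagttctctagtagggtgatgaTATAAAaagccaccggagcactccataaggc
CXCL2: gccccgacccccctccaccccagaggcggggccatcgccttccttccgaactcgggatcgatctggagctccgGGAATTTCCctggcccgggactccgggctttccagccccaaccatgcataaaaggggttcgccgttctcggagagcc
CCL20: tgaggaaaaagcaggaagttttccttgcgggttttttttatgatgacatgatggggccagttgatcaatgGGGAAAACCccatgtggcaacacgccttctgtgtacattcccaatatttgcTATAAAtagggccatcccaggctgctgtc
They lie at chr4:73740419-73740568 (plus strand), chr4:74099196-74099345 (minus) and chr2:227813692-227813841 (plus). Capitals mark GGAATTTCC, the AP-1 letters TGACTCA, the NF-kB-like letters GGGAAAACC and the TATA box letters TATAAA, each searched on both strands. TGACTCA was found in CXCL8 (from 137 bases before the start) and, on the opposite strand, in CXCL14, against 4.95% of all promoter windows. GGGAAAACC was found in CCL20 alone of the 9, against 0.439% of windows, and TATAAA in CXCL8 and CCL20, against 11.5%. The searched letters were chosen by hand and may include sites already known in these genes. The shares are therefore descriptions and not tests. 

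CXCL8, the neutrophil attractant also known as interleukin-8, was higher in CRB3-expressing cells, and it was the 1 of 10 genes that was called. Over all genes, 1.9% were called in either direction and 1.43% were called higher. No member was called lower, against 0.465% of all genes. Of the 17 probe sets 2 were called, both of CXCL8 and both higher, against 1.31% of all probe sets in either direction and 0.948% higher. The median log2 fold change of the 10 genes was 0.014, beside 0.0066 over all genes. Of the 9 genes that were not called, 8 had a 95% interval of the difference that lay within a 1.5-fold change either way. The interval of CXCL2 reached past it on the lower side. Of the 8, only CXCL1 and CCL20 were brighter than the unrelated-tissue genes. For the dim others, a narrow interval does not bound the change of the transcript. CXCL8, CXCL2 and CXCL3 were the 3 of 10 genes whose groups did not overlap, against 26.6% of all genes, a share near the background. By probe set it was 5 of 17, against 21.8%.

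**Figure D1:**
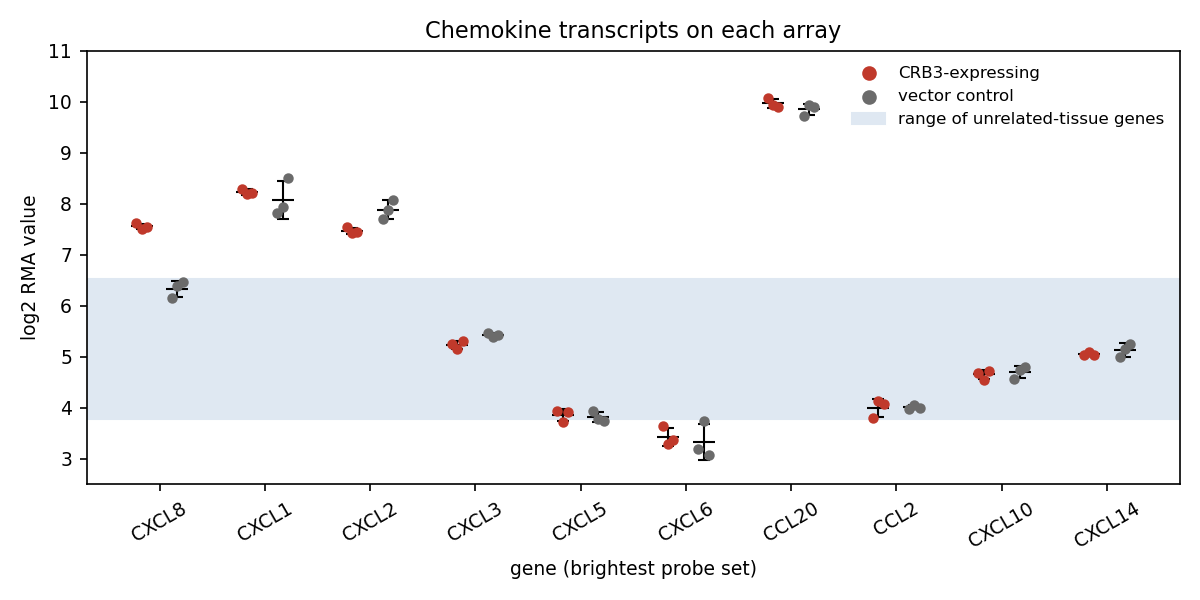
Log2 RMA value (y axis) of the brightest probe set of each chemokine gene (x axis) on the 3 CRB3-expressing arrays (red) and the 3 vector control arrays (grey). Points are arrays, bars are the mean and SD (n = 3), and the shaded band is the range of means of 11 genes of unrelated tissues, up to 6.52. CXCL8 lies at 7.56 in the red group and 6.33 in the grey one, while CCL20 is near 10 in both.

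The brightest CXCL8 probe set, 202859_x_at, read 7.62, 7.51 and 7.55 in CRB3-expressing cells, against 6.15, 6.39 and 6.46 in vector control cells. All 3 CRB3-expressing arrays lay above all 3 vector control arrays, and the vector control values lay within the range of the unrelated-tissue genes. CRB3-expressing cells averaged 7.56 ± 0.053 and vector control cells 6.33 ± 0.16 (SD, n = 3 each). This is a 2.34-fold difference (log2 fold change 1.23, SE 0.086, 95% interval 1.03 to 1.42, limma adjusted p = 8.01e-05). In bulk RNA, more cells that express CXCL8 and more CXCL8 RNA per cell cannot be told apart.

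A second CXCL8 probe set, 211506_s_at, gave 6.77, 6.74 and 6.88 in CRB3-expressing cells, against 5.70, 5.76 and 5.90 in vector control cells. The groups again did not overlap, with a 2.01-fold difference (log2 fold change 1.01, SE 0.075, limma adjusted p = 0.000114). Both names end in suffixes with which the manufacturer marks probes that can match more than 1 transcript, and no CXCL8 probe set without such a suffix was on the array. Because the vector control signal was within the range of the unrelated-tissue genes, the fold change may be understated. Its 95% interval lay wholly above those of the other 9 genes, whose upper ends were at most 0.50.

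CXCL1, CXCL2 and CXCL3 are close paralogs, first named for melanoma growth stimulation, and their measured changes differed from that of CXCL8. CXCL3 was too dim to bound the change of its transcript. CXCL1 (204470_at) read 8.29, 8.19 and 8.20 in CRB3-expressing cells, against 7.81, 7.93 and 8.50 in vector control cells. The groups overlapped, because vector control replicate 3 was the highest of the 6 arrays. The log2 fold change was 0.15 (SE 0.16, 95% interval -0.21 to 0.50, limma adjusted p = 0.706). Without vector control replicate 3 it was 0.36 (limma adjusted p = 0.0602), still not called.

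CXCL2 read 7.54, 7.43 and 7.44 in CRB3-expressing cells, against 7.70, 7.88 and 8.07 in vector control cells, in its brightest probe set, 209774_x_at. Every CRB3-expressing array lay below every vector control array. The log2 fold change was -0.42 (SE 0.095, 95% interval -0.63 to -0.20, limma adjusted p = 0.0496), which passed the p threshold but not the fold threshold. With no fold threshold, 2 members passed, CXCL8 higher and CXCL2 lower, against 5.14% of all genes in either direction, 3.37% higher and 1.77% lower. Its adjusted p was 0.0878 with the replicate number as a block, 0.24 with an ordinary pooled variance, and between 0.0983 and 0.167 without any 1 of 5 of the arrays, while without vector control replicate 1 it was 0.0208. The suffix of this probe set also marks probes that can match other transcripts, and the other 2 CXCL2 probe sets, with group means under 5, had log2 fold changes of 0.052 (230101_at) and -0.15 (1569203_at), neither of which passed the test.

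CXCL3 (207850_at) read 5.25, 5.15 and 5.30 in CRB3-expressing cells, against 5.46, 5.39 and 5.43 in vector control cells. The CRB3-expressing values were all lower, but the log2 fold change of -0.19 (SE 0.065) did not pass the test (limma adjusted p = 0.185), and both groups lay within the range of the unrelated-tissue genes.

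CXCL5 and CXCL6, a pair of paralogs that attract neutrophils in epithelial tissues, were dim in both groups. The 3 CXCL5 probe sets had means between 3.44 and 3.86 in CRB3-expressing cells and between 3.31 and 3.82 in vector control cells, with log2 fold changes of -0.066, 0.039 and 0.15 and no call. CXCL6 (206336_at) read 3.63, 3.28 and 3.36 in CRB3-expressing cells, against 3.19, 3.73 and 3.07 in vector control cells, and the groups overlapped (log2 fold change 0.095, SE 0.17, limma adjusted p = 0.835). At these levels the arrays do not show whether either transcript was present.

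CCL20, a chemokine of mucosal and skin epithelia, gave the brightest signal of the 10 genes and was not called. It read 10.06, 9.94 and 9.90 in CRB3-expressing cells, against 9.72, 9.93 and 9.90 in vector control cells. The groups overlapped (log2 fold change 0.12, SE 0.079, 95% interval -0.062 to 0.30, limma adjusted p = 0.525). CCL2 (216598_s_at), the monocyte attractant, read 3.80, 4.13 and 4.06 in CRB3-expressing cells, against 3.98, 4.05 and 3.99 in vector control cells. Its values lay low in the range of the unrelated-tissue genes, with a log2 fold change of -0.010 (SE 0.090).

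CXCL10 (204533_at) read 4.69, 4.55 and 4.72 in CRB3-expressing cells, against 4.57, 4.74 and 4.81 in vector control cells, and the groups overlapped (log2 fold change -0.054, SE 0.082, limma adjusted p = 0.806). The 3 probe sets of CXCL14 had means of 5.06, 4.70 and 4.51 in CRB3-expressing cells and 5.13, 4.70 and 4.54 in vector control cells. None of the 3 was called, with log2 fold changes between -0.075 and 0.00039, the last of which turned negative when the arrays were median-centred. Of the 17 probe sets of the 10 genes, 12 had group means under 6 in both groups, and 6 of the 10 genes had no probe set above that level. Over all genes, 37% had both means under 6 in their brightest probe set.

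**Figure D2:**
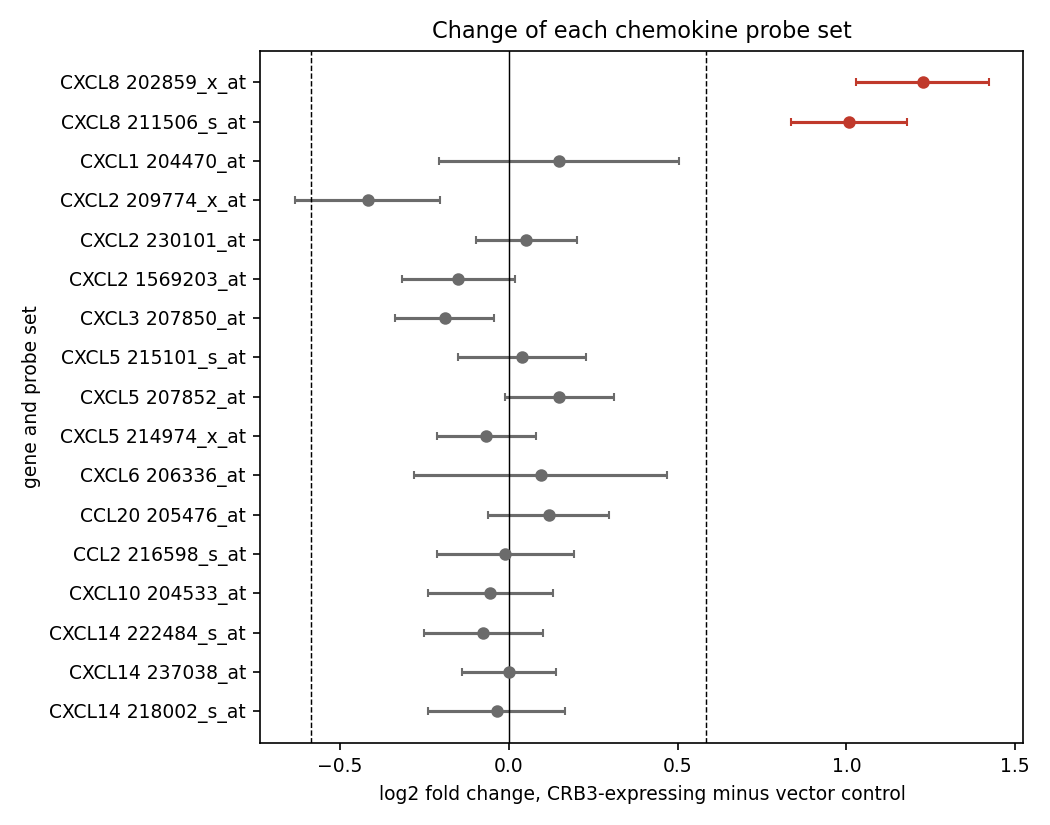
Difference between CRB3-expressing and vector control cells as a log2 fold change (x axis) with its 95% interval, for each of the 17 chemokine probe sets (y axis). Red marks a call, dashed lines a 1.5-fold change. Both CXCL8 probe sets lie to the right of the upper line, at 1.23 and 1.01, and the other 15 lie between -0.42 and 0.15.

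The vector control arrays differed more among themselves than the CRB3-expressing arrays for several bright members. CXCL1 spanned 0.10 log2 units over the CRB3-expressing arrays and 0.69 over the vector control arrays. CXCL2 spanned 0.11 over the CRB3-expressing and 0.37 over the vector control arrays, and CXCL8 0.10 over the CRB3-expressing and 0.30 over the vector control arrays. The vector control SD of CXCL1 was larger than that of 99.9% of genes. Vector control replicate 1 was the lowest of its group in all 5 member probe sets with a group mean of at least 6, and replicate 3 the highest in 4 of the 5, all except that of CCL20. Over all probe sets of that brightness, these arrays held those places in 38.5% and 33.1%. CXCL8 was called with each of the 6 arrays left out in turn, at log2 fold changes between 1.14 and 1.29.

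Of the 10 genes, 6 lie beside each other on chromosome 4, and CXCL8 at one end of that cluster was its only called gene. The stretch from CXCL8 (chr4:73740569-73743716) to CXCL2 (chr4:74097040-74099195) spans 359 kb in GRCh38.p14 and holds 17 RefSeq entries, of which 10 had a probe set of their own. Besides the 6 members these were PF4V1, PF4 and PPBP, which encode platelet chemokines, and the pseudogene PPBPP2. Apart from CXCL8, the log2 fold changes in the stretch ran between -0.42 for CXCL2 and 0.15 for CXCL1. CXCL6, the nearest member to CXCL8, starts 96.1 kb away, and CXCL10 starts 2281 kb away on the same chromosome. CXCL14 lies on chromosome 5, CCL2 on 17 and CCL20 on 2.

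**Figure D3:**
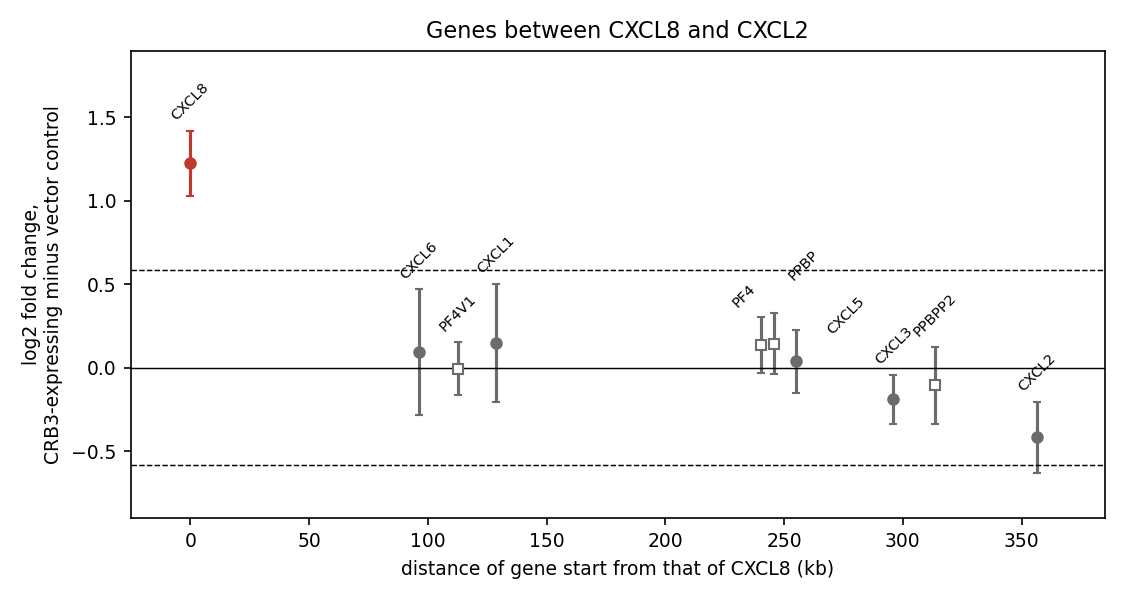
Difference between CRB3-expressing and vector control cells as a log2 fold change with its 95% interval (y axis), for the 10 measured genes from CXCL8 to CXCL2 against the distance of their start from that of CXCL8 in kb (x axis). Filled circles are the 6 chemokines described here, open squares the other 4 genes, red a call, and dashed lines a 1.5-fold change. CXCL8 stands at 1.23, and no other point of the stretch reaches 0.5 in either direction.

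The genes whose brightest probe set followed CXCL8 most closely over the 6 arrays, by Euclidean distance after each mean was subtracted, were IFIT3 (distance 0.18), FAP (0.21), PPM1H (0.21), CDH1 (0.22) and MGLL (0.22). IFIT3 is an interferon-induced antiviral protein, CDH1 encodes E-cadherin, and MGLL encodes monoacylglycerol lipase. Their log2 fold changes ran between 1.10 for CDH1 and 1.35 for MGLL. The values were not scaled, so a group difference close to that of CXCL8 follows from the way these genes were picked. Shared regulation was not tested.

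The receptors for these chemokines did not change detectably. Of 19 measured chemokine receptors and decoy receptors, none was called higher or lower, the median log2 fold change was 0.0046, and 16 had means under 6 in both groups. At an adjusted p under 0.05 alone, the count was also 0, and CXCR4, the CXCL12 receptor, was the 1 gene at an unadjusted p under 0.05 (log2 fold change 0.21, limma adjusted p = 0.261), while its other 2 probe sets went the other way, at -0.095 and -0.16. CXCR2, which binds the neutrophil attractants, read 3.81, 4.20 and 3.77 in CRB3-expressing cells, against 3.76, 3.71 and 3.62 in vector control cells. Those values lie near the low end of the unrelated-tissue range, and the limma adjusted p was 0.375.

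Among 29 other chemokines, 2 were higher and 0 lower (median log2 fold change 0.029), against 1.43% of all genes higher and 0.465% lower. Of the 29, 19 had means under 6 in both groups, where a change of the transcript may be missed. CCL28, a mucosal epithelial chemokine that acts on CCR10 and CCR3, read 8.17, 8.37 and 8.27 in CRB3-expressing cells, against 6.66, 6.82 and 6.99 in vector control cells. The groups were far apart (log2 fold change 1.45, SE 0.094, limma adjusted p = 5.31e-05), while its other 2 probe sets had log2 fold changes of 0.40, not called, and 0.66, called at means under 6. CXCL16, a membrane-bound ligand of CXCR6, read 8.53, 8.57 and 8.35 in CRB3-expressing cells, against 7.74, 7.88 and 7.86 in vector control cells. All 3 CRB3-expressing values were the higher ones (log2 fold change 0.66, SE 0.079, limma adjusted p = 0.0019). It was not called with an ordinary pooled variance (adjusted p = 0.0683). The other 27 ran between -0.19 for CCL1 and 0.25 for CCL23 without a call.

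A further list held inflammatory cytokines, receptors and signal adaptors, and is called the inducing genes below. Not all of them induce these chemokines: the antagonist IL1RN is among them, and a place on the list does not make LIF or CSF3 an inducer. Of its 31 measured genes, 29 were not called, 1 was higher and 1 lower, against 1.43% of all genes higher and 0.465% lower. Their median log2 fold change was -0.030. LIF, a cytokine of the interleukin-6 family, read 8.72, 8.65 and 8.53 in CRB3-expressing cells, against 7.74, 7.53 and 7.80 in vector control cells, a log2 fold change of 0.94 (SE 0.087). CSF3, the granulocyte colony-stimulating factor, read 7.59, 7.64 and 7.92 in CRB3-expressing cells, against 8.72, 8.56 and 8.70 in vector control cells, a log2 fold change of -0.94 (SE 0.096, limma adjusted p = 0.000735). So 2 secreted regulators of neutrophils, CXCL8 and CSF3, stood in opposite order between the groups, and neither pair of groups overlapped. CSF3 was not called with an ordinary pooled variance (adjusted p = 0.0656).

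The genes of this list named in this paragraph were picked after their values were seen. IL1A, an epithelial alarmin, read 9.99, 9.97 and 9.85 in CRB3-expressing cells, against 10.50, 10.49 and 10.53 in vector control cells. The log2 fold change of -0.57 (SE 0.064, limma adjusted p = 0.00132) was just under the fold threshold, and its dim second probe set had one of -0.097, not called. IL1RN, the interleukin-1 receptor antagonist, had a log2 fold change of 0.54 in its brightest probe set, not called, and of 2.33 (8.02 in CRB3-expressing cells, 5.68 in vector control cells) and 1.11 in 2 others, both called. IL1B had one of -0.090 and TNF one of 0.040, and neither passed the test. MYD88, an adaptor, was higher at 0.50 (10.33 in CRB3-expressing cells, 9.83 in vector control cells, limma adjusted p = 0.0019). IL1R2 was higher at 0.32 (limma adjusted p = 0.0497), with means under 6. Both passed the p threshold but not the fold threshold. IL6R was lower at -0.40 (7.85 in CRB3-expressing cells, 8.25 in vector control cells, limma adjusted p = 0.0205), also short of the fold threshold. IL1RAP (-0.27), IL1R1 (-0.27), IL36B (-0.030) and IL36G (0.13) did not pass the test.

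Of 17 measured NF-kB factors and feedback genes, none was called, and the median log2 fold change was -0.0047. The smallest p-values were those of the deubiquitinase CYLD (log2 fold change 0.23, SE 0.060, adjusted p = 0.0846) and of REL, the c-Rel subunit (-0.35, SE 0.10, limma adjusted p = 0.11). The other 6 CYLD probe sets ran between -0.14 and 0.11, and none was called. Of the other REL probe sets, the next brightest passed the p threshold but not the fold threshold (-0.42, limma adjusted p = 0.0114), with a mean of 6.79 in CRB3-expressing cells and one of 7.21 in vector control cells. A dimmer one was called lower at -0.62, with a mean of 5.19 in CRB3-expressing cells and one of 5.81 in vector control cells. Of 17 genes on the interferon route to CXCL10, none was called and the median was 0.10. IRF7 (7.05 in CRB3-expressing cells, 6.51 in vector control cells) passed the p threshold but not the fold threshold, at a log2 fold change of 0.53 (SE 0.073, limma adjusted p = 0.00401), and IRF9 had one of 0.45 (adjusted p = 0.0605). None of 12 genes of AU-rich mRNA decay and stability was called (median -0.0014), among them ZFP36L2 at 0.18 and ZFP36, which binds chemokine messages, at 0.12. The value of ZFP36L2 was -0.0045 as the mean over its 4 probe sets.

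**Figure D4:**
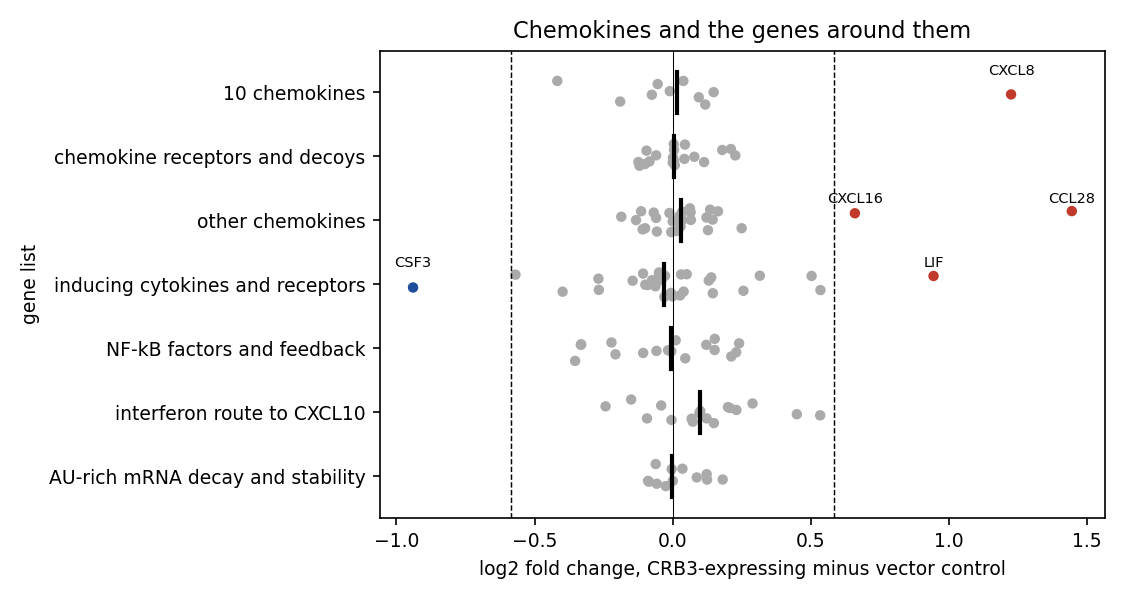
Difference between CRB3-expressing and vector control cells as a log2 fold change (x axis), for the 10 chemokines and of the measured members of 6 gene lists around them (y axis). Points are genes in their brightest probe set, red called higher, blue called lower and grey not called, black bars are medians, and dashed lines mark a 1.5-fold change. CXCL8, CCL28, CXCL16 and LIF lie to the right of the upper line and CSF3 to the left of the lower one.

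Most markers of leukocytes, which make several of these chemokines themselves, were no brighter than the unrelated-tissue genes. Of 14 measured neutrophil and monocyte markers, 9 had means under 6 in both groups, including PTPRC, LYZ, FCGR3B and TYROBP. The list averaged 5.52 to 5.58 on the CRB3-expressing arrays and 5.48 to 5.49 on the vector control arrays. CSF1R was called higher (log2 fold change 0.60). ITGB2, an integrin chain of leukocytes, had a mean of 8.29 in CRB3-expressing cells, against 7.72 in vector control cells, without overlap, and passed the p threshold but not the fold threshold (log2 fold change 0.57, limma adjusted p = 0.00524). CD14 was not called, with a mean of 8.27 in CRB3-expressing cells and one of 8.32 in vector control cells. The part of CSF1R, ITGB2 or any other leukocyte marker in the CXCL8 result was not tested. The 9 lymphocyte markers averaged 5.39 to 5.54 in CRB3-expressing and 5.47 to 5.53 in vector control cells, with no call. Among 9 fibroblast markers 1, DCN, was lower (log2 fold change -0.76), and none of 7 endothelial markers was called.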

How the data were processed

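Transcript levels were measured on 1 Affymetrix U133 Plus 2.0 array per sample, 3 of CRB3-expressing and 3 of vector control MCF-10A cells. The deposited values are on the log2 scale, background-corrected, quantile-normalized and summarised per probe set by the authors with RMA, and were not normalized again. Tool versions are not given in the sources used here. Precision is limited by the 3 arrays per group.

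Differences (CRB3-expressing minus vector control) were fitted in R 4.3.3 by limma 3.58.1 with moderated variances, and p-values were adjusted (Benjamini-Hochberg) across 54613 probe sets, excluding 62 control probe sets. A call needed both thresholds of the study's methods, 0.05 for the adjusted p and 1.5-fold for the change. The platform annotation, updated through RefSeq (GRCh38.p14), gave 41091 probe sets with a single symbol, 1801 with several and 11721 with none. Each gene was represented by its brightest probe set with no other symbol, and a gene lacking one was not used here.

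The chemokines and gene lists were chosen with earlier results of these data known. Named were all members, in each list up to 4 called genes (or the 2 smallest p-values), and the 5 genes closest to CXCL8. Any further gene was picked with its values in view. The steps were tested on simulated data. Alternatives were a replicate block, other variance models, normalizations, filters, fold thresholds and probe set rules, array weights, and each array left out. Promoters came from RefSeq, and windows were aligned globally (match 1, mismatch -1, gap opening -3, extension -1).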

Additional observations from a re-analysis of the deposited data

How the results depend on the processing

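CXCL8 was called in all 18 alternatives that could read it, at log2 fold changes between 1.12 and 1.29, and it was the member called higher in each. It has no probe set free of shared-transcript suffixes, so leaving those out gave 0 members higher. CXCL2 passed the p threshold in 9 of 19 alternatives, and 1 member gene and 1 member probe set were lower with no fold threshold. With shared probe sets left out, CXCL2 stood at 0.052 and CXCL14 at 0.00039, each with its sign turned, and CXCR4 at -0.16, against -0.013 as the mean over its probe sets, where ZFP36L2 was at -0.0045. Same-numbered arrays did not deviate together (r = -0.085, 0.064 and 0.029), so the numbers were not taken as pairs. With the replicate block, CXCL8 kept its log2 fold change of 1.23, CXCL2 was not past the p threshold (adjusted p = 0.0878), and no call of a member changed.

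Over the whole array, 518 probe sets were higher and 198 lower. The counts were 297 and 82 with an ordinary pooled variance, 1226 and 759 with no fold threshold, 196 and 44 above 2-fold, and 170 and 32 by limma's treat. With no fold threshold, 4 inducing genes were higher and 3 lower, and 1 interferon gene was higher. Above 2-fold, and by treat, 1 other chemokine was higher and 0 inducing genes were called in either direction. With an ordinary pooled variance, 1 other chemokine was higher and 0 inducing genes lower. As gene means, 2 inducing genes were higher. Over any probe set, 2 inducing genes (LIF and IL1RN) and 2 interferon genes (RIGI and SOCS3) were higher and 1 NF-kB gene (REL) was lower.

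With each array left out in turn, inducing genes called higher ran from 1 to 2, and lower from 1 to 2. The second lower gene appeared without CRB3-expressing replicate 1 or 2, and the second higher one without vector control replicate 1. Uncalled log2 fold changes that turned sign ran from -0.0020 to 0.11 for CXCL5, -0.036 to 0.30 for CXCL6, -0.075 to 0.088 for CCL2, and -0.088 to 0.035 and -0.025 to 0.029 for the CXCL14 probe sets 218002_s_at and 237038_at. The last was -0.012 after median-centring and -0.011 after quantile normalization. Dim probe sets, 12 of the 17, limit what could be detected.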
